A study of Drosophila melanogaster with 21 samples.

Results

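Total RNA of Drosophila melanogaster embryos carrying the delRGG allele of Top3beta was compared with that of embryos carrying the Top3b26 allele, over every FlyBase gene in the count table. The table held 17869 such genes among 23932 features, and 10001 of these genes passed the filter on low counts and were tested. The comparison used 3 delRGG and 3 Top3b26 libraries of the 21 samples in the study, and 3 wild-type libraries gave the level against which both alleles were read. The delRGG libraries carry the genotype label Top3b[delta]RGG, a form of the gene without its RGG region, and the Top3b26 and wild-type libraries carry the genotypes Top3b26 and wild-type. The 3 libraries of a further genotype, Top3bY332F, entered the model only to estimate the spread and the principal components. All of them are labelled embryo, and the labels used here give no embryo age, no number of embryos and no further allele or agent. They also do not say that replicates were separate collections, so the p-values measure the spread between these libraries, which may be technical.

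Topoisomerase 3 beta cuts a single strand through a catalytic tyrosine, passes another strand through the break and reseals it, and it acts on RNA as well as on DNA. Its RGG region, rich in arginine and glycine, is a stretch through which such proteins bind RNA. Its partner Tdrd3 ties it to messenger RNA and protein complexes, and in the fly the enzyme is known for its role at neuromuscular synapses. The series set out to test what the loss of its activity does to neurons, and the alleles compared here differ in whether the RGG region or most of the transcript is missing.

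Top3beta (FBgn0026015) had 136, 141 and 125 CPM (counts scaled to a common library size, with TMM factors) in delRGG replicates 1 to 3, against 23.3, 21.1 and 21.8 CPM in Top3b26 and 125, 122 and 94.5 CPM in wild type. The delRGG and Top3b26 libraries did not overlap, and the delRGG libraries lay at or just above the top of the wild-type range. Its log2 fold change of delRGG over Top3b26 was 2.60 (SE 0.14, edgeR adjusted p 6.05e-07). Counts over the whole gene do not show whether the RGG region itself is missing, so they check the Top3b26 label and not the delRGG label. Of the other 6 topoisomerase and partner genes listed, Blm (the Bloom helicase) was called, at 160, 155 and 157 CPM in delRGG against 122, 127 and 121 CPM in Top3b26 (log2 fold change 0.35, SE 0.12, edgeR adjusted p 0.0454). That call was lost when any delRGG or Top3b26 library was left out (edgeR adjusted p 0.127 without delRGG replicate 1). Tdrd3 had 53.1, 46.6 and 46.9 CPM in delRGG and 59.0, 52.2 and 52.5 CPM in Top3b26, and did not pass the test (edgeR adjusted p 0.352).

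Total counts per library ran from 22400118 to 31125584, and a floor of 3 counts per library, used below where a group is at 0, covers counting error only. The libraries differed far more in their position between the groups than in depth. On the first principal component of the 12 total RNA libraries, which held 83.9% of the variance, delRGG replicates 1 to 3 lay at -48.27, -10.44 and 32.14. The Top3b26 libraries lay at 28.49, 54.46 and 44.25 and the wild-type libraries at -34.03, -45.71 and -89.55, so delRGG replicate 1 stood among the wild-type libraries and delRGG replicate 3 among the Top3b26 libraries. Pearson's r of log2(CPM + 1) across genes was 0.956 between delRGG replicates 1 and 3, against 0.993 to 0.997 between Top3b26 replicates. Wild-type replicates also spread, with r from 0.972 (replicates 1 and 3) to 0.994 (replicates 1 and 2). Results that differ between the delRGG libraries are therefore given for each of them. The wild-type columns of the table carry another letter than the mutant columns, and if that letter marks a library set, it cannot be told apart from genotype in any value set against wild type.

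By edgeR's quasi-likelihood test at an adjusted p under 0.05, 2834 genes differed between delRGG and Top3b26, or 28.3% of those tested. Of these, 1725 were higher in delRGG (17.2%) and 1109 were lower (11.1%), and at 2-fold or more the counts were 1420 (14.2%) and 153 (1.53%). The 17.2% and 11.1% are the shares of all genes against which the list counts below should be read. Against wild type, delRGG had 580 called genes (5.80%), with 322 higher (3.22%) and 258 lower (2.58%), and at 2-fold 69 (0.690%) and 136 (1.36%). Top3b26 had 5695 (56.9%), with 2392 higher (23.9%) and 3303 lower (33.0%), and at 2-fold 165 (1.65%) and 2847 (28.5%). Leaving out a library changed the count between the alleles by over 1.5 times in 5 cases. Without delRGG replicate 1, 561 genes were higher (5.50%) and 546 lower (5.35%). Without delRGG replicate 2, 1129 were higher (11%) and 677 lower (6.58%), and without delRGG replicate 3, 2612 were higher (25.4%) and 2107 lower (20.5%). In all, 821 genes were called without Top3b26 replicate 2 and 816 without Top3b26 replicate 3. The share of called genes that were higher in delRGG was 60.9%, and it was 46.5% without Top3b26 replicate 2 and 47.4% without Top3b26 replicate 3. With delRGG and Top3b26 fitted alone, 1312 genes were called. Higher in delRGG in that fit were 11 of 39 cuticle genes tested, 1 of 26 muscle genes, 9 of 44 synapse genes, 0 of 16 basement membrane genes and 19 of 24 digestive enzymes. Fits that leave out a library test slightly different numbers of genes.

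Genes that stayed near wild type in delRGG but fell in Top3b26 were counted by a fixed rule. They had to be lower in Top3b26 than in wild type and higher in delRGG than in Top3b26, each at an adjusted p under 0.05, and in delRGG they had to be uncalled against wild type and within 0.5 of it on the log2 scale. This held for 412 genes (4.12% of those tested), which is 12.5% of the 3303 genes lower in Top3b26. Their median log2 fold change of Top3b26 over wild type was -1.30, and 244 of them fell by 2-fold or more. Another 1116 genes met every criterion except the limit of 0.5. Just inside the limit were CkIIalpha-i3 at -0.498, lncRNA:CR45965 at 0.498 and CG15423 at -0.499, and just outside it were hth at -0.506, ich at -0.508 and CG10916 at 0.511. The count was 223 without delRGG replicate 1 (2.19%), 359 without delRGG replicate 2 (3.49%), 964 without delRGG replicate 3 (9.37%), 176 without Top3b26 replicate 2 and 180 without Top3b26 replicate 3. It was 265 without wild-type replicate 2 and 949 without wild-type replicate 3. Which lists enter the class also depended on delRGG replicate 3. Without it 15 cuticle, 6 synapse, 4 muscle and 8 basement membrane genes met the rule, against 1, 0, 0 and 0 with all libraries. A core of 163 genes, 39.6% of the 412, also met the rule in each fit that left out a delRGG replicate.

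CG11034, mth and Dab had little transcript left in Top3b26, while each of their delRGG libraries lay near the wild-type range. CG11034 (FBgn0031741) had 23.3, 23.1 and 23.8 CPM in delRGG, against 0.0322, 0.0474 and 0.0405 CPM in Top3b26 and 21.3, 21.5 and 22.8 CPM in wild type. The log2 fold change of delRGG over Top3b26 was 9.05 (SE 0.22, edgeR adjusted p 1.39e-09), and that of delRGG over wild type was 0.10, which did not pass the test (edgeR adjusted p 0.629). The gene methuselah, mth (FBgn0023000), encodes a G protein-coupled receptor first known from long-lived mutants. Its level was 25.8, 28.9 and 30.4 CPM in delRGG, 0.450, 0.379 and 0.324 CPM in Top3b26 and 29.9, 29.2 and 35.5 CPM in wild type (delRGG over Top3b26 6.17, SE 0.17, edgeR adjusted p 4.22e-09). Dab (FBgn0000414), the Disabled adaptor protein that works with the Abl kinase in axons and embryonic epithelia, had 288, 256 and 225 CPM in delRGG, 7.27, 3.51 and 4.74 CPM in Top3b26 and 262, 231 and 189 CPM in wild type (5.60, SE 0.23, edgeR adjusted p 8.10e-08). For all 3 genes each delRGG library lay close to the wild-type range, including replicate 3, which stood with Top3b26 on the first component.

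Srp14 and wisp fell less in Top3b26. Srp14 (FBgn0038808), a subunit of the signal recognition particle that brings nascent secreted proteins to the endoplasmic reticulum, had 28.7, 31 and 30.5 CPM in delRGG, 1.83, 1.90 and 1.78 CPM in Top3b26 and 24.4, 29.9 and 31.5 CPM in wild type (4.03, SE 0.16, edgeR adjusted p 6.90e-08). The gene wispy, wisp (FBgn0260780), encodes the cytoplasmic poly(A) polymerase that lengthens the tails of maternal messenger RNA. It had 1390, 1420 and 1260 CPM in delRGG, 575, 635 and 580 CPM in Top3b26 and 1420, 1470 and 1120 CPM in wild type (1.19, SE 0.13, edgeR adjusted p 0.000233). In each case the delRGG libraries overlapped wild type and did not overlap Top3b26.

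**Figure D1:**
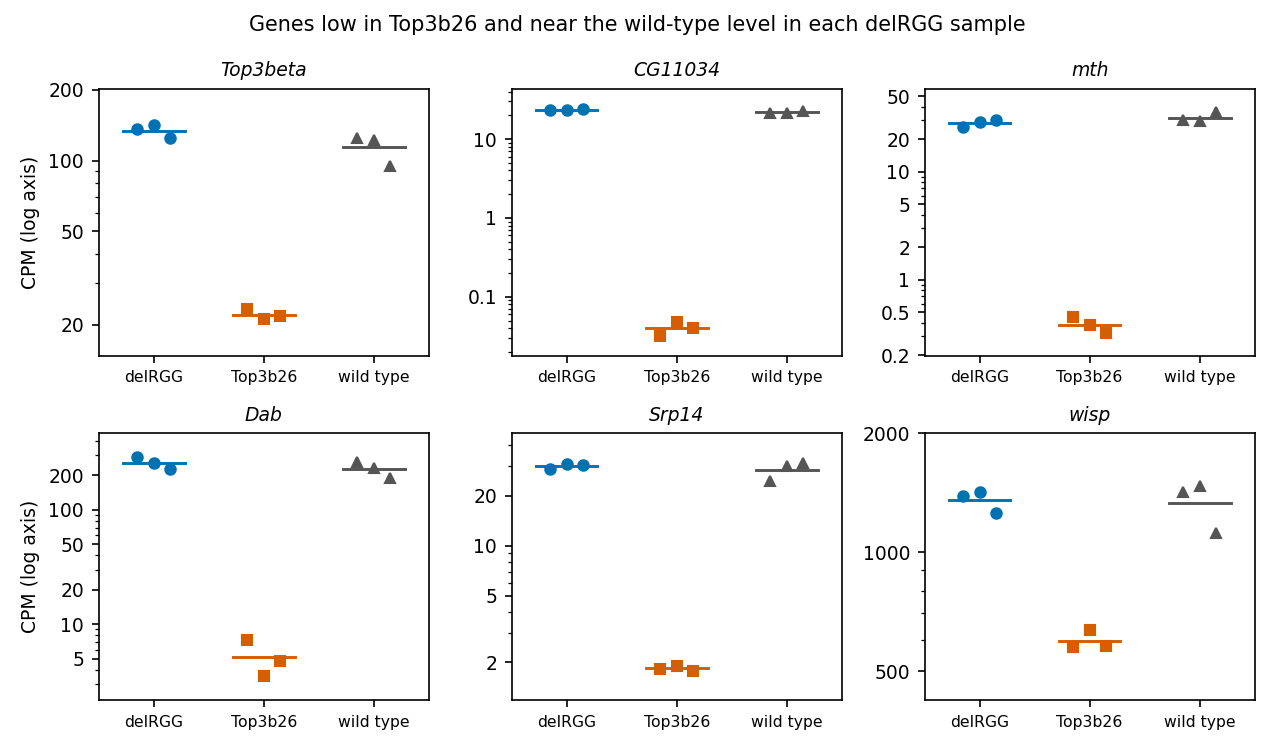
CPM (log axis) of Top3beta and 5 genes in the 3 delRGG, 3 Top3b26 and 3 wild-type libraries, with replicates 1 to 3 from left to right and a line at the mean of each group. Every delRGG point lies near the wild-type points and above every Top3b26 point, for CG11034 at 23.1 to 23.8 CPM against 0.0322 to 0.0474 CPM in Top3b26.

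The class does not hold GstE1, Dh44-R2, pst or CG30428, which also had large rises in delRGG over Top3b26. GstE1, a glutathione S-transferase, had 17.9, 17.5 and 16.8 CPM in delRGG, 0.643, 0.237 and 0.243 CPM in Top3b26 and 23.8, 25.5 and 25.2 CPM in wild type (5.47, SE 0.32, edgeR adjusted p 1.62e-06). It lay below every wild-type library, although it was not called against wild type (log2 fold change -0.52, edgeR adjusted p 0.253). Dh44-R2, a receptor for the diuretic hormone Dh44, exceeded wild type in delRGG, with 6.69, 6.12 and 6.10 CPM against 0.0965, 0.142 and 0.0405 CPM in Top3b26 and 1.27, 0.892 and 2.22 CPM in wild type. Its log2 fold change was 6.03 over Top3b26 (SE 0.52, edgeR adjusted p 3.29e-05) and 2.11 over wild type (edgeR adjusted p 0.0114). The antiviral resistance gene pastrel, pst, behaved likewise, with 35.4, 28.2 and 31.9 CPM in delRGG, 0.643, 0.806 and 0.851 CPM in Top3b26 and 7.80, 10.4 and 15.9 CPM in wild type (over Top3b26 5.38, SE 0.28, edgeR adjusted p 6.05e-07; over wild type 1.48, edgeR adjusted p 0.00389). Every Y332F library also exceeded every wild-type library, at 4.5, 5.35 and 7.55 CPM for Dh44-R2 and 28.4, 26.4 and 30.1 CPM for pst. CG30428 had 10.3, 8.23 and 10.6 CPM in delRGG, 0 counts in every Top3b26 library, and 6.54, 4.42 and 8.49 CPM in wild type. Against a floor of 3 counts per library, delRGG had at least 80.9-fold more CG30428 (edgeR adjusted p 4.10e-06), and it was not called against wild type (log2 fold change 0.58, edgeR adjusted p 0.264).

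The 10 most abundant genes of the class fell in Top3b26 by 0.37 to 1.46 on the log2 scale against wild type, and wisp, above, was one of them. The poly(A)-binding protein gene pAbp had 1610, 1400 and 1690 CPM in delRGG, 1200, 1190 and 1110 CPM in Top3b26 and 1630, 1420 and 1530 CPM in wild type (0.42, SE 0.10, edgeR adjusted p 0.0131). The release factor eRF3 had 844, 754 and 865 CPM in delRGG, 548, 607 and 592 CPM in Top3b26 and 799, 765 and 690 CPM in wild type (0.50, SE 0.09, edgeR adjusted p 0.00338). The talin gene rhea, which links integrins to actin, had 567, 465 and 353 CPM in delRGG, 232, 194 and 219 CPM in Top3b26 and 603, 537 and 632 CPM in wild type (1.10, SE 0.14, edgeR adjusted p 0.000607). No delRGG library of these 3 genes overlapped Top3b26. The 6 other abundant members differed from Top3b26 by 0.32 to 1.14 on the log2 scale. They were the RNA-binding protein gene Imp (0.32), the axon protein gene fax (0.34), the germ plasm gene tudor, tud (0.41), the scaffold gene eIF4G1 of translation initiation (0.46), 14-3-3zeta (0.47) and lncRNA:CR34335 (1.14). The calls of pAbp, eIF4G1, tud and fax did not hold without Top3b26 replicate 2 (edgeR adjusted p 0.0675, 0.0821, 0.0846 and 0.170) or replicate 3 (0.0766, 0.0650, 0.0628 and 0.112). Those of tud, 14-3-3zeta and fax did not hold without delRGG replicate 1 (0.0730, 0.0650 and 0.0995), those of tud and fax not without delRGG replicate 3 (0.0518 and 0.0547), and that of fax not without delRGG replicate 2 (0.112) or wild-type replicate 2 (0.0563).

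Digestive enzymes were the gene list with the largest median log2 fold change between the alleles. The list held the Jonah proteases and trypsins, maltases, amylases and lysozymes of the midgut, and 28 of 50 listed genes were tested. Summed over all 50, the list had 238.0, 224.1 and 247.3 CPM in delRGG and 211.3, 219.4 and 225.1 CPM in Top3b26. Wild type had 291.4, 275.7 and 315.5 CPM, so the alleles overlapped in the sum and delRGG lay below every wild-type library. In delRGG 24 of the 28 were higher than in Top3b26 and 1 was lower. Their median log2 fold change was 5.02, against 0.02 over all genes tested. Several, such as Jon99Fii and Jon25Bi, had no reads in Top3b26 and passed the filter on low counts only through other groups. The counts and medians of the tested members are therefore partly set by the filter. In Top3b26 25 fell below wild type with a median of -4.98, while the median of delRGG over wild type was 0.12. Of the 28, 8 (28.6%) met the rule for staying near wild type in delRGG, against 4.12% of all genes, and the count was 3 without delRGG replicate 1 and 12 without delRGG replicate 3. In bulk embryo RNA, fewer cells of a type and less RNA per cell cannot be told apart.

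In every delRGG library the median of this list lay within the range of the wild-type medians. It exceeded the limit of 0.5 in replicates 1 and 3, and its members spread to both sides. The list median of log2(CPM + 0.1), relative to the wild-type mean of each gene, was 0.76, 0.08 and 0.90 in delRGG replicates 1 to 3, -2.47, -2.66 and -2.58 in Top3b26 and -1.12, 0.02 and 1.03 in wild type. Among the members, Mal-A3 lay at -0.19, -2.02 and -2.19 in delRGG replicates 1 to 3 on that scale, and Jon99Fii at 1.94, 1.60 and 2.40. In each delRGG library 26 of the 28 genes exceeded every Top3b26 library, compared with 4289, 4290 and 3574 of the 10001 genes tested. The count of higher genes was 17 without delRGG replicate 1, 26 without delRGG replicate 3, 11 without Top3b26 replicate 2 and 12 without Top3b26 replicate 3, and the median was 4.87 without delRGG replicate 1. These transcripts were rare. Where a mean of at least 50 counts was required, 5 members were tested, 1 was higher and 1 lower in delRGG, and the median was 0.47. The reads of neighbouring Jonah genes may be shared between near-identical copies, and the counting settings are not given in the sources used here, so single members are uncertain.

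Jon99Fii had 3.97, 3.10 and 5.47 CPM in delRGG, 0 counts in each Top3b26 library and 0.464, 0.807 and 2.22 CPM in wild type. Against a floor of 3 counts per library the delRGG mean exceeded Top3b26 by a factor of at least 34.8 (edgeR adjusted p 0.00663), and Jon99Fii was not called against wild type (edgeR adjusted p 0.285). Jon25Bi had 4.07, 0.957 and 3.82 CPM in delRGG, 0 counts in Top3b26 and 0.211, 1.10 and 2.61 CPM in wild type, at least 24.6-fold higher (edgeR adjusted p 0.00821). Both proteases were above the floor in every delRGG library. The 8 members that stayed near wild type are named here after their values were seen. They are Jon25Biii, Jon65Aiii, Jon65Aiv, zetaTry, LysD, Amy-p, Mal-A1 and Mal-A4. Of these, Amy-p, Mal-A1 and Mal-A4 were not called without delRGG replicate 1 (edgeR adjusted p 0.0971, 0.0921 and 0.0623), and Amy-p and Mal-A1 not without delRGG replicate 2 (0.0690 and 0.0551) or Top3b26 replicate 1 (0.0767 and 0.0666). Amy-p, Mal-A1, Mal-A4 and LysD were not called without Top3b26 replicate 2 (0.119, 0.109, 0.0829 and 0.0693) or replicate 3 (0.121, 0.0853, 0.0853 and 0.0659), and Amy-p not without wild-type replicate 2 (0.0518). Jon25Biii had 4.14, 2.41 and 4.72 CPM in delRGG, 0, 0.0474 and 0 CPM in Top3b26 and 0.675, 2.68 and 5.76 CPM in wild type (edgeR adjusted p 0.00385). Jon65Aiv had 4.91, 1.95 and 2.68 CPM in delRGG, 0.0322, 0.0948 and 0.0405 CPM in Top3b26 and 0.337, 2.29 and 6.23 CPM in wild type (edgeR adjusted p 0.00728), and it was the list's single member that met the rule without each delRGG replicate in turn. The member that fell in delRGG relative to Top3b26 was the maltase gene Mal-A5, with 110, 125 and 125 CPM in delRGG, 145, 166 and 162 CPM in Top3b26 and 131, 135 and 119 CPM in wild type (-0.39, SE 0.08, edgeR adjusted p 0.00664). That call did not hold without Top3b26 replicate 2 (0.0604) or 3 (0.0610).

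Adult gut and reproductive tissue would also carry such enzymes, and a list of 15 adult and reproductive tract markers gave a sum of 1.244, 0.9568 and 1.26 CPM in delRGG, 0.7398, 3.556 and 12.68 CPM in Top3b26 and 1.35, 1.104 and 1.83 CPM in wild type. The 2 highest sums were in Top3b26 replicates 2 and 3 and the lowest was in Top3b26 replicate 1, and the part of these tissues in the result was not tested. Of the 15 genes, 1 passed the filter on low counts, and it was not called.

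Genes of the cuticle also differed between the alleles, but not in every delRGG library. Of 127 cuticle protein genes listed, 65 were tested. Among the 65, 34 (52.3%, against 17.2% of all genes) were higher in delRGG than in Top3b26 and none was lower. Their median was 3.45. Members rare in Top3b26 could pass the filter on low counts only through other groups, so these values are partly set by the filter. In Top3b26 64 fell below wild type with a median of -4.98, and in delRGG the median against wild type was -1.40, so 1 gene met the rule for staying near wild type. The list median relative to wild type was 0.13, -1.99 and -3.90 in delRGG replicates 1 to 3, against -3.50, -4.50 and -4.60 in Top3b26. Replicate 1 exceeded every Top3b26 library in 64 of the 65 genes (98.5%), replicate 2 in 58 (89.2%) and replicate 3 in 22 (33.8%). The shares over all genes tested were 42.9%, 42.9% and 35.7%, so replicate 3 was close to that share. In replicate 3, 19 of the 65 lay below every Top3b26 library. The count of higher genes was 2 without delRGG replicate 1, 62 without delRGG replicate 3, 17 without Top3b26 replicate 1, and 1 without Top3b26 replicate 2 or 3.

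Single cuticle genes showed the same spread. Lcp65Ag3, a larval cuticle protein of a cluster of near-identical copies, had 44.7, 7.96 and 5.95 CPM in delRGG, 0.515, 0.474 and 0.324 CPM in Top3b26 and 6.20, 24.5 and 77.9 CPM in wild type (5.46, SE 1.11, edgeR adjusted p 0.00801; without delRGG replicate 1, 3.96 and 0.0196). Cpr65Ea had 78.1, 16.2 and 2.09 CPM in delRGG, 3.99, 1.19 and 1.09 CPM in Top3b26 and 31.3, 76.5 and 179 CPM in wild type (3.90, SE 1.10, edgeR adjusted p 0.0271; without delRGG replicate 1, 2.08 and 0.133). The Cpr65Ea call also did not hold without Top3b26 replicate 2 (0.0968) or 3 (0.0975). The groups overlapped for Cpr65Ea, since delRGG replicate 3 lay within the Top3b26 range. The single cuticle gene that met the rule was Cpr65Av, with 9.42, 1.84 and 0.433 CPM in delRGG, 0.193, 0.0948 and 0.0405 CPM in Top3b26 and 1.14, 3.86 and 11.1 CPM in wild type (5.05, SE 1.24, edgeR adjusted p 0.0170). It was not called without delRGG replicate 1 (edgeR adjusted p 0.0653), without Top3b26 replicate 2 (0.0674) or without Top3b26 replicate 3 (0.0716).

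Chitin and tanning genes followed the cuticle proteins, with 12 of 28 higher (42.9%, against 17.2% of all genes) and 4 lower (14.3%, against 11.1%). Their median was 2.36. The sum over the 29 listed was 1254, 827.9 and 690.6 CPM in delRGG and 906.7, 872.0 and 876.3 CPM in Top3b26. It thus lay below every Top3b26 library in delRGG replicates 2 and 3. In replicate 3, 4 of the 28 genes exceeded every Top3b26 library and 12 lay below every one. Ddc, the dopa decarboxylase of cuticle tanning, had 6.89, 1.49 and 0.433 CPM in delRGG, 0.225, 0.285 and 0.162 CPM in Top3b26 and 1.31, 4.16 and 9.85 CPM in wild type (3.70, SE 1.04, edgeR adjusted p 0.0267; without delRGG replicate 1, 2.09 and 0.131). The Ddc call did not hold without Top3b26 replicate 1 (0.0602), 2 (0.0811) or 3 (0.0934). Higher chitin genes numbered 1 without delRGG replicate 1, 5 without delRGG replicate 2, 21 without delRGG replicate 3 and none without Top3b26 replicate 2 or 3. None of the 14 Osiris genes tested, a cluster expressed in epithelia that lay down cuticle, passed the test between the alleles, whose median was 2.22. Osi7 had 152, 63.6 and 4.13 CPM in delRGG, 17.1, 6.12 and 9.60 CPM in Top3b26 and 165, 183 and 503 CPM in wild type (2.73, SE 0.94, edgeR adjusted p 0.0505). In delRGG replicates 1 and 2 all 14 Osiris genes exceeded every Top3b26 library, and in replicate 3 none did. Of all genes tested 42.9%, 42.9% and 35.7% did so in replicates 1 to 3. Without delRGG replicate 3, 13 of 15 tested were called higher.

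Muscle and basement membrane genes split the delRGG libraries in the same way. Of 28 muscle contraction genes, 21 (75.0%, against 17.2% of all genes) were higher in delRGG than in Top3b26 and 1 was lower. Their median was 2.87, and none of the 24 that fell in Top3b26 met the rule for staying near wild type. The list median relative to wild type was -0.04, -1.64 and -3.42 in delRGG replicates 1 to 3, and -3.40, -4.60 and -4.31 in Top3b26. The Z-disc protein gene Zasp66 had 11.2, 2.68 and 2.91 CPM in delRGG, 0.418, 0.854 and 0.284 CPM in Top3b26 and 2.36, 8.66 and 25.9 CPM in wild type (3.44, SE 0.90, edgeR adjusted p 0.0216; without delRGG replicate 1, 2.44 and 0.0837; without Top3b26 replicate 1, 3.32 and 0.0523; without Top3b26 replicate 3, 3.15 and 0.0817). Msp300, the large nesprin that anchors muscle nuclei, had 1070, 358 and 102 CPM in delRGG, 241, 203 and 196 CPM in Top3b26 and 774, 687 and 1410 CPM in wild type, and did not pass the test (1.26, SE 0.61, edgeR adjusted p 0.129). Its delRGG replicate 3 lay below every Top3b26 library. No muscle gene was called higher without delRGG replicate 1 or without Top3b26 replicate 3, and 1 was without Top3b26 replicate 2.

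All 16 basement membrane genes fell in Top3b26 against wild type, with a median of -2.96. Higher in delRGG than in Top3b26 were 9 (56.2%, against 17.2% of all genes), with a median of 1.89. Relative to wild type the list median was -0.02, -1.08 and -3.11 in delRGG replicates 1 to 3, and -2.24, -4.03 and -2.80 in Top3b26. The perlecan gene trol, a heparan sulfate proteoglycan of the matrix, had 264, 67.0 and 17.1 CPM in delRGG, 19.7, 6.83 and 8.51 CPM in Top3b26 and 124, 172 and 394 CPM in wild type (3.30, SE 0.86, edgeR adjusted p 0.0212; without delRGG replicate 1, 1.83 and 0.0906; without Top3b26 replicate 2, 3.00 and 0.0824; without Top3b26 replicate 3, 3.09 and 0.0826). The laminin chain gene LanA had 648, 437 and 124 CPM in delRGG, 212, 57.8 and 149 CPM in Top3b26 and 622, 544 and 1080 CPM in wild type, and did not pass the test (1.53, SE 0.56, edgeR adjusted p 0.0614). In delRGG replicates 1, 2 and 3, 16, 15 and 0 of the 16 genes exceeded every Top3b26 library, against 42.9%, 42.9% and 35.7% of all genes tested. The count of higher genes was 0 without delRGG replicate 1, Top3b26 replicate 2 or Top3b26 replicate 3, 4 without delRGG replicate 2 and 14 without delRGG replicate 3.

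**Figure D2:**
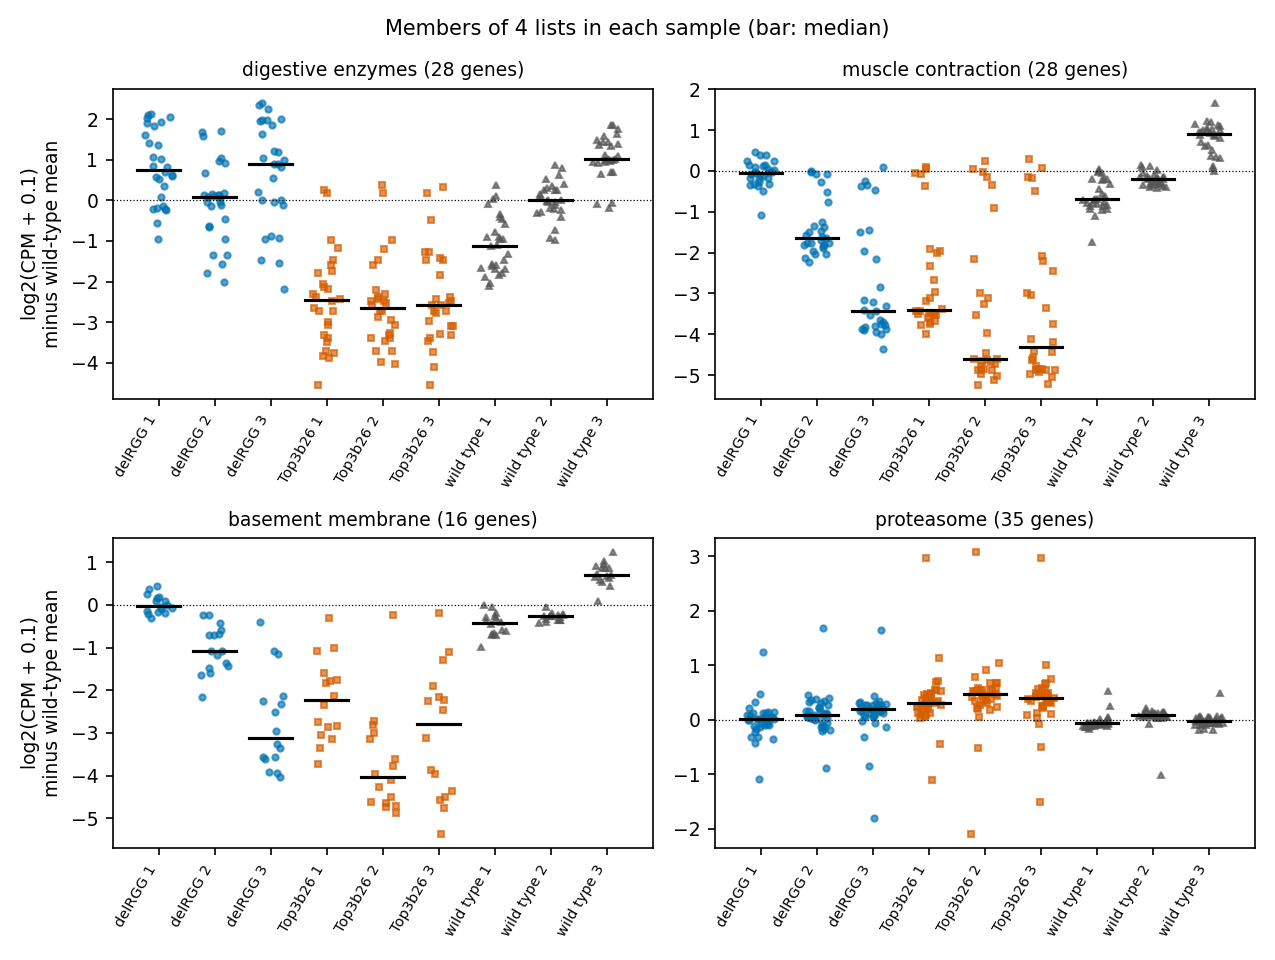
Each point is a gene of the list named above the panel in the library named on the horizontal axis, as log2(CPM + 0.1) minus that gene's wild-type mean, and bars are list medians. The digestive enzyme medians are 0.76, 0.08 and 0.90 in delRGG against -2.47 to -2.66 in Top3b26, whereas the muscle medians are -0.04, -1.64 and -3.42 in delRGG and the proteasome medians are 0.01 to 0.19 in delRGG against 0.30 to 0.48 in Top3b26.

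Genes of mature neurons were the list with the highest share of called genes after the digestive enzymes. Of 48 synapse and excitability genes, 38 (79.2%, against 17.2% of all genes) were higher in delRGG than in Top3b26 and none was lower. Their median was 2.80, and 43 fell in Top3b26 against wild type with a median of -4.28. None met the rule for staying near wild type, and the delRGG median against wild type was -1.16. The nicotinic acetylcholine receptor subunit gene nAChRalpha6 had 7.23, 1.11 and 0.827 CPM in delRGG, 0.225, 0.0948 and 0.122 CPM in Top3b26 and 2.87, 3.78 and 11.1 CPM in wild type (4.30, SE 0.94, edgeR adjusted p 0.0109; without delRGG replicate 1, 2.63 and 0.0311). The neuroligin gene Nlg4, a synaptic adhesion protein, had 3.67, 0.957 and 0.354 CPM in delRGG, 0.129, 0.0474 and 0.0405 CPM in Top3b26 and 1.94, 2.17 and 5.61 CPM in wild type (4.37, SE 0.96, edgeR adjusted p 0.0112; without delRGG replicate 1, 3.03 and 0.0368). For both genes each delRGG library exceeded each Top3b26 library. Replicate 3 of delRGG exceeded every Top3b26 library in 29 of the 48 genes (60.4%), 6 of 28 muscle genes (21.4%) and 0 of 16 basement membrane genes. The share over all genes tested was 35.7%, so the muscle and basement membrane shares lay below it. The count of higher genes was 9 without delRGG replicate 1, 4 without Top3b26 replicate 2 and 3 without Top3b26 replicate 3, and in the last of these fits nAChRalpha6 was at an edgeR adjusted p of 0.0507 and Nlg4 at 0.0544 (0.0511 without Top3b26 replicate 2).

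Neuropeptides and glia followed with smaller counts. Of 34 neuropeptide genes listed, 11 were tested. Among the 11, 6 were higher in delRGG (54.5%, against 17.2% of all genes) and 1 was lower (9.09%, against 11.1%). Their median was 2.74. Members rare in Top3b26 could pass the filter on low counts only through other groups, so these values are partly set by the filter. Summed over the 34, the abundant Phm included, delRGG had 95.96, 74.13 and 68.91 CPM against 75.14, 79.71 and 77.81 CPM in Top3b26. The count of higher genes was 2 without delRGG replicate 1 or Top3b26 replicate 2. It was 1 without Top3b26 replicate 3, and 4 without delRGG replicate 2 or Top3b26 replicate 1. Proctolin, Proc, a peptide that acts on muscle, had 1.11, 0.344 and 0.394 CPM in delRGG, 0, 0.0474 and 0 CPM in Top3b26 and 0.506, 0.552 and 2.02 CPM in wild type (5.10, SE 1.16, edgeR adjusted p 0.0130; without Top3b26 replicate 3, 4.65 and 0.0557). The lower gene was the peptide-amidating enzyme Phm, with 54.5, 51.1 and 53.7 CPM in delRGG, 64.5, 74.2 and 68.7 CPM in Top3b26 and 58.7, 61.5 and 66.0 CPM in wild type (-0.38, SE 0.08, edgeR adjusted p 0.00703). Among 13 glial genes, 4 were higher (30.8%, against 17.2%) and 1 was lower (7.69%, against 11.1%), with a median of 1.42. The higher count ran from 1 without Top3b26 replicate 2 or 3, and 2 without delRGG replicate 1 or 2, to 7 without delRGG replicate 3. Eaat1, the glial glutamate transporter, had 8, 1.65 and 1.57 CPM in delRGG, 0.322, 0.190 and 0.162 CPM in Top3b26 and 1.94, 5.31 and 14.4 CPM in wild type (4.01, SE 0.89, edgeR adjusted p 0.0115; without Top3b26 replicate 2, 3.88 and 0.05; without Top3b26 replicate 3, 3.81 and 0.0534). The glial calcium exchanger zydeco, zyd, was lower in delRGG than in both other groups, at 67.9, 63.3 and 78.6 CPM against 105, 116 and 113 CPM in Top3b26 and 103, 106 and 119 CPM in wild type (-0.67 against Top3b26, SE 0.09, edgeR adjusted p 0.000815).

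Odorant-binding proteins and chemoreceptors were rare in these embryos, and 22 of 237 listed genes were tested. Members without reads in Top3b26 could pass the filter on low counts only through other groups. Of these 11 were higher in delRGG than in Top3b26 and none was lower, with a median of 2.18, and 3 met the rule for staying near wild type. The odorant receptor gene Or19b had 0.538, 0.727 and 0.157 CPM in delRGG, 0 counts in Top3b26 and 0.675, 0.340 and 0.818 CPM in wild type, at least 3.95-fold higher in delRGG against a floor of 3 counts per library (edgeR adjusted p 0.00931). The ionotropic receptor gene Ir76a, named here after its values were seen, met the rule in every fit that left out a delRGG replicate. It had 2.93, 2.14 and 3.15 CPM in delRGG, 0.0643, 0.0948 and 0.122 CPM in Top3b26 and 2.74, 2.76 and 2.30 CPM in wild type (4.82, SE 0.39, edgeR adjusted p 2.12e-05). The list had 2 higher genes without delRGG replicate 1, Top3b26 replicate 2 or Top3b26 replicate 3, 4 without delRGG replicate 2 and 7 without Top3b26 replicate 1.

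**Figure D3:**
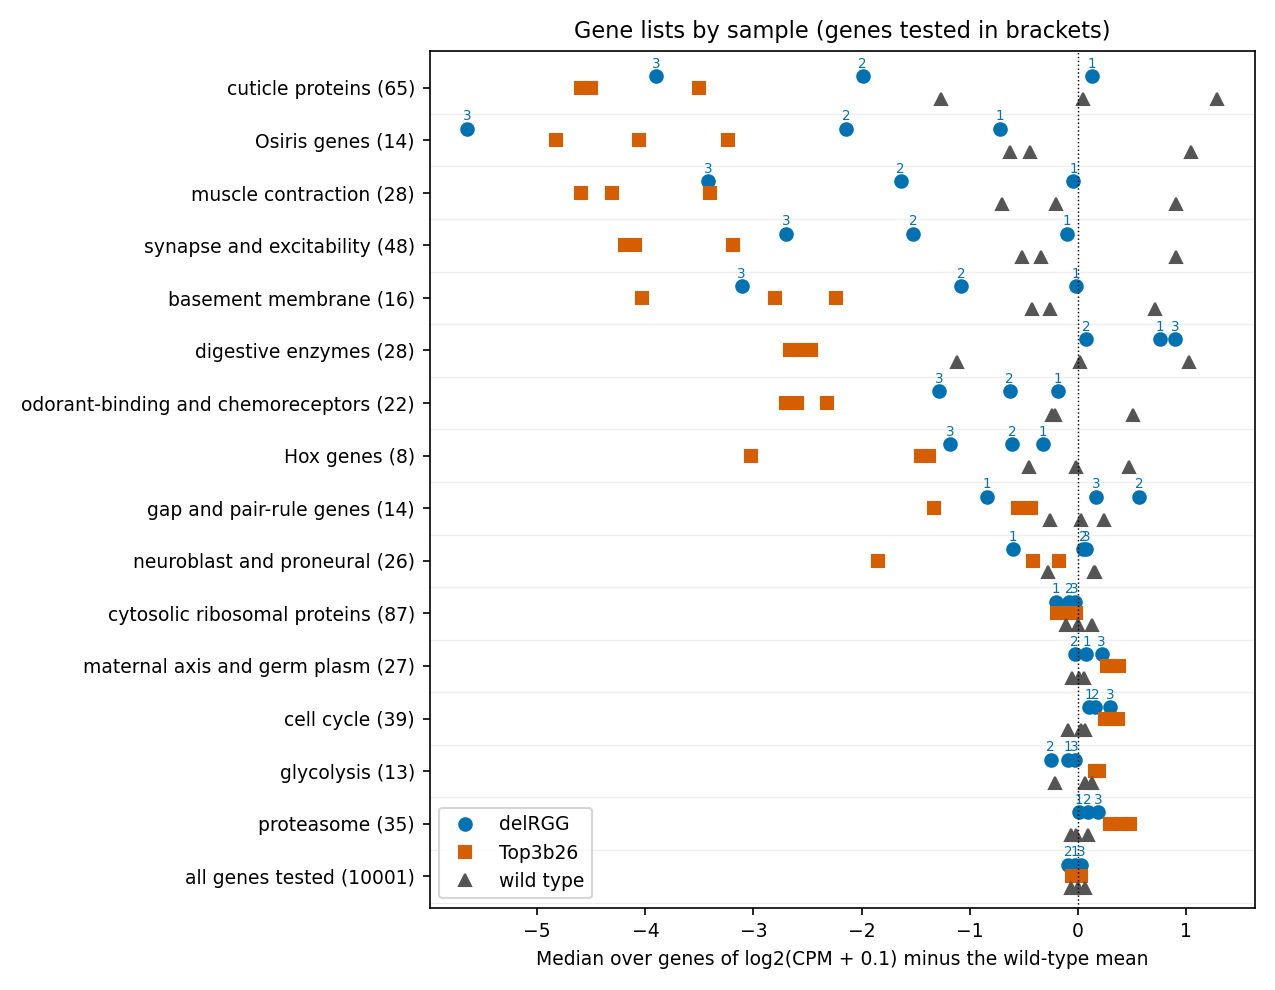
Median over the tested genes of each list of log2(CPM + 0.1) minus the gene's wild-type mean, in each of the 9 libraries, with delRGG replicate numbers beside their points. The delRGG libraries spread from 0.13 to -3.90 for cuticle proteins and from -0.04 to -3.42 for muscle, but lie between 0.08 and 0.90 for digestive enzymes, above the Top3b26 libraries at -2.47 to -2.66.

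In septate junctions, which seal insect epithelia, 5 of 23 genes (21.7%) were higher in delRGG, against 17.2% of all genes, 1 was lower, and the median was 0.13. The count of higher genes was 2 without delRGG replicate 1, Top3b26 replicate 2 or Top3b26 replicate 3, and 3 without delRGG replicate 2. The scaffold gene varicose, vari, had 116, 112 and 69.7 CPM in delRGG, 39.4, 31.5 and 34.1 CPM in Top3b26 and 89.8, 85.3 and 140 CPM in wild type (1.51, SE 0.23, edgeR adjusted p 0.00169), and it met the rule for staying near wild type in every fit that left out a delRGG replicate. Its partner at the junction, cora, spread more, at 201, 144 and 44.0 CPM in delRGG, 49.2, 22.1 and 31.7 CPM in Top3b26 and 159, 152 and 298 CPM in wild type (1.91, SE 0.49, edgeR adjusted p 0.0197; without delRGG replicate 1, 1.44 and 0.0745; without Top3b26 replicate 2, 1.67 and 0.0792; without Top3b26 replicate 3, 1.85 and 0.0761). For vari no delRGG library overlapped Top3b26, and for cora delRGG replicate 3 did. Of 5 fat body genes 2 were higher, 0 without delRGG replicate 1, Top3b26 replicate 2 or Top3b26 replicate 3, and the lipophorin gene apolpp did not pass the test, at 1340, 816 and 241 CPM in delRGG, 427, 167 and 285 CPM in Top3b26 and 1700, 1500 and 3250 CPM in wild type (1.45, SE 0.57, edgeR adjusted p 0.0740). Of 21 ecdysone genes 6 were higher and none was lower, with a median of 0.81, and the count was 2 without delRGG replicate 1 or 2, 4 without Top3b26 replicate 1 and 0 without Top3b26 replicate 2 or 3. Among 10 hemocyte genes 1 was higher and 2 were lower, with a median of 0.73. Among 306 long noncoding RNAs 47 were higher (15.4%, against 17.2% of all genes) and 16 lower, with a median of 0.45. The rule for staying near wild type was met by 12 (3.92%), close to the 4.12% of all genes. The count of higher noncoding RNAs was 16, 29, 14 and 15 without delRGG replicate 1, delRGG replicate 2, Top3b26 replicate 2 and Top3b26 replicate 3.

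Of 58 cytochrome P450 genes, 20 were higher in delRGG (34.5%) and 6 were lower (10.3%), with a median of 1.36. Of 51 glutathione and UDP transferases 9 were higher (17.6%) and 7 were lower (13.7%), with a median of 0.50. The transferase shares were close to the 17.2% and 11.1% of all genes, as was the lower share of the P450 genes. The higher counts were 6 and 4 without delRGG replicate 1, 13 and 5 without delRGG replicate 2, 32 and 19 without delRGG replicate 3, 5 and 5 without Top3b26 replicate 2 and 5 and 4 without Top3b26 replicate 3. Cyp6a17 had 3.06, 1.91 and 3.39 CPM in delRGG, 0.0322, 0.142 and 0.0810 CPM in Top3b26 and 15.8, 14.5 and 15.3 CPM in wild type (5.03, SE 0.45, edgeR adjusted p 4.09e-05), so it was partly retained in delRGG (log2 fold change against wild type -2.45, edgeR adjusted p 0.00248). Cyp6a17 has close paralogs, and reads may be shared among them. GstD1, an abundant glutathione S-transferase, was lower in delRGG, at 232, 209 and 356 CPM, against 627, 629 and 625 CPM in Top3b26 and 379, 503 and 567 CPM in wild type (-1.24, SE 0.19, edgeR adjusted p 0.00203).

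Few genes of early patterning were called between the alleles, although the list medians of delRGG over Top3b26 were 0.89 for gap and pair-rule, 0.72 for segment polarity and 1.27 for Hox genes. Of 14 gap and pair-rule genes 1 was higher in delRGG, odd-skipped, odd, at 6.96, 13.9 and 11.8 CPM in delRGG, 5.79, 2.61 and 6.20 CPM in Top3b26 and 11.7, 9.34 and 13.2 CPM in wild type (1.16, SE 0.34, edgeR adjusted p 0.0317). That call did not hold without delRGG replicate 2 (edgeR adjusted p 0.0965) or without Top3b26 replicate 2 (0.102) or 3 (0.0673). The order of the delRGG libraries on this list was not that of the late lists. The list median relative to wild type was -0.84, 0.57 and 0.17 in delRGG replicates 1 to 3 and -0.55, -1.33 and -0.43 in Top3b26. In delRGG replicates 1 to 3, 1, 14 and 13 of the 14 genes exceeded every Top3b26 library, against 42.9%, 42.9% and 35.7% of all genes tested. Without delRGG replicate 1, 5 gap and pair-rule genes were called higher, and none was without delRGG replicate 2 or Top3b26 replicate 2 or 3. None of 15 segment polarity genes was higher in delRGG and 1 was lower. Of 8 Hox genes, all of which fell in Top3b26 against wild type, 1 was called between the alleles. This was Ubx, at 21.8, 17.3 and 15.2 CPM in delRGG, 9.81, 2.80 and 8.95 CPM in Top3b26 and 24.0, 16.6 and 31.6 CPM in wild type (1.33, SE 0.42, edgeR adjusted p 0.0400). Without delRGG replicate 3, 5 of the 8 Hox genes were called higher, and 2 were without Top3b26 replicate 1. The Ubx call did not hold without Top3b26 replicate 2 (edgeR adjusted p 0.0967) or replicate 3 (0.0883), or without delRGG replicate 1 (0.123) or 2 (0.0756).

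Among 26 neuroblast and proneural genes 2 were higher in delRGG and none was lower, with a median of 0.58. Inscuteable, insc, which orients the division of neural stem cells, had 57.8, 47.6 and 57.8 CPM in delRGG, 32.3, 26.0 and 32.0 CPM in Top3b26 and 22.4, 21.4 and 29.7 CPM in wild type, so it rose in delRGG over both other groups (0.86 over Top3b26, SE 0.14, edgeR adjusted p 0.00308; 1.15 over wild type, edgeR adjusted p 0.00129). Among 21 genes of myoblast specification and fusion 2 were higher, and the fusion receptor gene kirre likewise exceeded both groups, at 30.6, 25.3 and 23.1 CPM in delRGG, 4.79, 3.08 and 3.97 CPM in Top3b26 and 12.2, 12.5 and 17.2 CPM in wild type (2.73 over Top3b26, SE 0.23, edgeR adjusted p 3.29e-05; 0.91 over wild type, edgeR adjusted p 0.0345).

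The opposite class, higher in Top3b26 than in wild type and near wild type in delRGG, held 757 genes (7.57% of those tested), or 31.6% of the 2392 genes higher in Top3b26. The changes were small, with a median Top3b26 over wild-type log2 fold change of 0.48, and 47 of the 757 reached 2-fold. The count was 361 without delRGG replicate 1 (3.54%), 475 without delRGG replicate 2 (4.62%), 1681 without delRGG replicate 3 (16.3%), 272 without Top3b26 replicate 2 and 268 without Top3b26 replicate 3, and 305 genes (40.3%) met the rule in each fit that left out a delRGG replicate.

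Proteasome subunits were the list with the largest share in this class. Of 35 genes tested, 18 were lower in delRGG than in Top3b26 and none was higher, with a median of -0.30, against 0.02 over all genes. In Top3b26 28 were higher than in wild type with a median of 0.42, the delRGG median against wild type was 0.12, and 16 of the 35 met the rule. The list median relative to wild type was 0.01, 0.09 and 0.19 in delRGG replicates 1 to 3 and 0.30, 0.48 and 0.40 in Top3b26. Below every Top3b26 library lay 34, 28 and 26 of the 35 genes in delRGG replicates 1 to 3, against 42.1%, 39.9% and 34.1% of all genes. Rpn1, a scaffold of the regulatory particle, had 354, 330 and 373 CPM in delRGG, 450, 441 and 454 CPM in Top3b26 and 303, 342 and 330 CPM in wild type (-0.35, SE 0.07, edgeR adjusted p 0.00908). Prosalpha1, a subunit of the core particle, had 17.1, 14.2 and 16.6 CPM in delRGG, 30.4, 28.6 and 27.6 CPM in Top3b26 and 13.5, 15.8 and 12.1 CPM in wild type (-0.85, SE 0.13, edgeR adjusted p 0.00207). The delRGG and Top3b26 libraries did not overlap for either subunit. The count of lower genes was 8 without delRGG replicate 1, 23 without delRGG replicate 3, 5 without Top3b26 replicate 2 and 7 without Top3b26 replicate 3.

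Glycolysis held 6 genes lower in delRGG than in Top3b26 and 1 higher among 13, with a median of -0.30, and 4 met the rule. Triose phosphate isomerase, Tpi, had 270, 240 and 308 CPM in delRGG, 476, 487 and 500 CPM in Top3b26 and 251, 301 and 311 CPM in wild type (-0.84, SE 0.10, edgeR adjusted p 0.000338). Enolase, Eno, had 1090, 1120 and 1100 CPM in delRGG, 1420, 1600 and 1480 CPM in Top3b26 and 1010, 1220 and 1150 CPM in wild type (-0.44, SE 0.10, edgeR adjusted p 0.0125; without Top3b26 replicate 2, -0.40 and 0.0511). Both enzymes were near the wild-type level in each delRGG library. The higher gene was lactate dehydrogenase, Ldh, whose 23.1, 14.2 and 3.82 CPM in delRGG, 3.73, 1.28 and 2.27 CPM in Top3b26 and 15.4, 16.3 and 44.0 CPM in wild type spread like the cuticle genes (2.48, SE 0.65, edgeR adjusted p 0.0218; without delRGG replicate 1, 1.87 and 0.0821; without Top3b26 replicate 2, 2.17 and 0.0830; without Top3b26 replicate 3, 2.42 and 0.0804). The count of lower glycolytic genes was 4 to 7 over the fits that left out a delRGG or Top3b26 replicate.

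Of 27 maternal axis and germ plasm genes 16 were higher in Top3b26 than in wild type, and 6 were lower and 1 higher in delRGG than in Top3b26, with a median of -0.23. The kinase subunit gene png, which drives translation of maternal messages at egg activation, had 25.2, 21.1 and 28.4 CPM in delRGG, 35.6, 34.4 and 37.7 CPM in Top3b26 and 21.5, 22.5 and 23.1 CPM in wild type (-0.53, SE 0.12, edgeR adjusted p 0.0110). Of 24 genes of the piRNA and siRNA pathways 7 were lower in delRGG and 1 was higher, with a median of -0.16, and 10 were higher in Top3b26 than in wild type. The piRNA list median relative to wild type was 0.00, 0.04 and 0.33 in delRGG replicates 1 to 3 and 0.12, 0.30 and 0.24 in Top3b26, so delRGG replicate 3 lay above every Top3b26 library. The co-chaperone gene shutdown, shu, which loads piRNAs, had 115, 92.4 and 141 CPM in delRGG, 165, 195 and 179 CPM in Top3b26 and 84.6, 103 and 98.9 CPM in wild type (-0.63, SE 0.14, edgeR adjusted p 0.0112). The piRNA pathway gene nxf2 was lower in delRGG than in both other groups, at 56.0, 61.8 and 76.0 CPM against 89.9, 105 and 111 CPM in Top3b26 and 104, 104 and 102 CPM in wild type (-0.66, SE 0.13, edgeR adjusted p 0.00610). Without delRGG replicate 1 both lists had 2 lower genes, and without Top3b26 replicate 2 or 3 likewise, while without delRGG replicate 3 they had 14 and 11, and without delRGG replicate 2 the maternal list had 4.

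Of 39 cell cycle genes 25 were higher in Top3b26 than in wild type, and 3 were lower and 1 higher in delRGG than in Top3b26. The replication clamp PCNA had 134, 142 and 164 CPM in delRGG, 209, 212 and 222 CPM in Top3b26 and 117, 126 and 118 CPM in wild type (-0.55, SE 0.08, edgeR adjusted p 0.000949). Cyclin B, CycB, had 3640, 3600 and 3900 CPM in delRGG, 4060, 4420 and 4250 CPM in Top3b26 and 3600, 3530 and 3140 CPM in wild type, and did not pass the test between the alleles (-0.19, edgeR adjusted p 0.163).

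Housekeeping lists other than the chaperones held few calls. Of 87 cytosolic ribosomal protein genes 2 were higher and 2 were lower in delRGG than in Top3b26, with a median of -0.01 that was 0.05 with total-count normalization. RpL6 had 381, 476 and 326 CPM in delRGG, 192, 173 and 136 CPM in Top3b26 and 216, 231 and 259 CPM in wild type (1.24, SE 0.15, edgeR adjusted p 0.000372), and so exceeded both other groups. Of 72 mitochondrial ribosomal protein genes 2 were higher and 4 lower, of 65 respiratory chain genes 5 were higher and 2 lower, and of 44 translation factors 4 were higher and 2 lower, with medians between -0.05 and -0.02 that changed sign with total-count normalization (0.01 to 0.04). ND-42, a subunit of respiratory complex I, had 61.9, 68.1 and 65.4 CPM in delRGG, 38.5, 35.0 and 32.1 CPM in Top3b26 and 63.7, 68.6 and 75.1 CPM in wild type (0.89, SE 0.09, edgeR adjusted p 0.000120). With ND-13B of the same complex it was the respiratory chain pair that met the rule for staying near wild type in every fit that left out a delRGG replicate. Of 20 heat shock and chaperone genes 3 were higher and 2 lower, and the small heat shock protein gene Hsp23 exceeded both groups, at 27.1, 37.9 and 38.7 CPM in delRGG, 5.98, 5.50 and 6.76 CPM in Top3b26 and 14, 10.6 and 10.6 CPM in wild type (2.5, SE 0.18, edgeR adjusted p 8.74e-06).

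The largest falls in delRGG against Top3b26 were of 2 kinds. In the first, Top3b26 was high and delRGG was at or below the wild-type level. The noncoding RNA lncRNA:CR40469 had 0.673, 0.727 and 1.5 CPM in delRGG, 447, 631 and 507 CPM in Top3b26 and 1.05, 0.722 and 1.05 CPM in wild type (-9.11, SE 0.29, edgeR adjusted p 8.42e-09). CG17470 had 0.740, 0.383 and 0.591 CPM in delRGG, 8.62, 10.6 and 8.87 CPM in Top3b26 and 0.422, 0.552 and 0.311 CPM in wild type (-4.02, SE 0.51, edgeR adjusted p 0.000508). The carboxylesterase gene alpha-Est10 had 9.92, 8 and 7.91 CPM in delRGG, 80.8, 89.4 and 92.4 CPM in Top3b26 and 10.8, 13.9 and 23.2 CPM in wild type (-3.34, SE 0.25, edgeR adjusted p 9.06e-06), and delRGG was also lower than wild type (-0.89, edgeR adjusted p 0.0469). The Top3b26 libraries stood far above both other groups for all 3 genes.

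In the second kind, delRGG was low and Top3b26 was at or above wild type. CG15312 had 3.83, 4.55 and 3.27 CPM in delRGG, 75.7, 80.5 and 75.8 CPM in Top3b26 and 45.1, 62.4 and 62.2 CPM in wild type (-4.31 against Top3b26, SE 0.17, edgeR adjusted p 5.94e-08; -3.86 against wild type, edgeR adjusted p 3.32e-07). CG14615 had 2.66, 1.76 and 3.70 CPM in delRGG, 22.6, 26.0 and 29.6 CPM in Top3b26 and 17.1, 16.7 and 13.3 CPM in wild type (-3.27, SE 0.25, edgeR adjusted p 1.55e-05). Drep1, which belongs to the family of caspase-activated DNA fragmentation factors, had 28.2, 23.9 and 27.1 CPM in delRGG, 173, 195 and 170 CPM in Top3b26 and 154, 147 and 128 CPM in wild type (-2.77, SE 0.14, edgeR adjusted p 6.05e-07). These falls set delRGG apart from Top3b26 and wild type in every library, although Drep1 was also low in Y332F, as given at the end. The other 4 of the 10 largest falls were CG8419 (-3.51), CG7985 (-3.30), the clip-domain protease gene Hayan (-3.28) and the nucleoside transporter gene Ent3 (-2.93), and in each of these the delRGG mean lay below the wild-type mean and the Top3b26 mean above it.

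**Figure D4:**
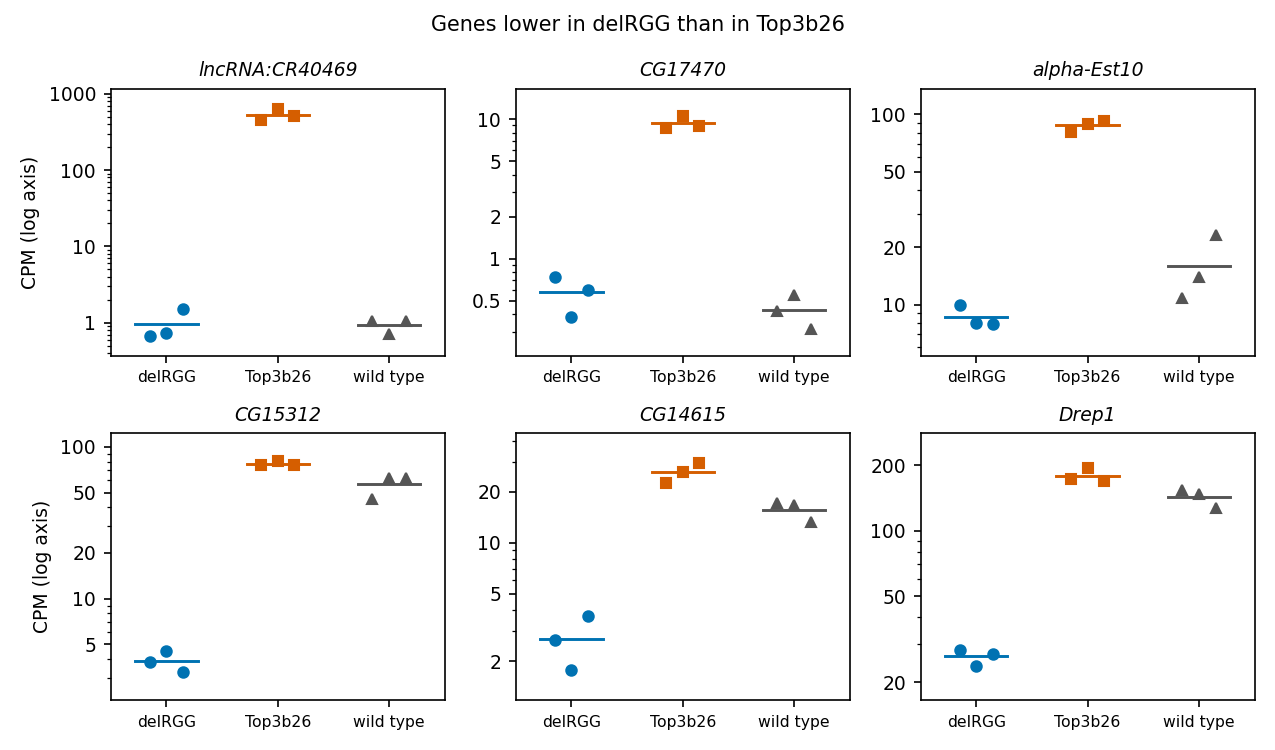
CPM (log axis) of 6 genes lower in delRGG than in Top3b26, in the 3 delRGG, 3 Top3b26 and 3 wild-type libraries, with a line at each mean. In the upper row Top3b26 is high, as for lncRNA:CR40469 at 447 to 631 CPM, and in the lower row delRGG is low, as for Drep1 at 23.9 to 28.2 CPM.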

How the data were processed

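The labels' protocols describe Trizol extraction, the Lexogen CORALL kit for total RNA and paired-end NovaSeq sequencing. The submitters' processing notes name bcl2fastq, HISAT2, featureCounts and DESeq2. The genome build, annotation release and strand setting are not given in the sources used here, so no coordinates are printed, and paralogs, overlapping genes and antisense genes are uncertain. The authors deposited whole-number counts per feature, with no normalization. Symbols for 17790 of 17869 gene IDs (99.6%) were read from a table of FlyBase IDs.

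Features passing filterByExpr (minimum count 10), 10238 in all and 10001 of them genes, entered the quasi-likelihood test of edgeR 4.0.16 (run under R 4.3.3). It used TMM factors and all 12 total RNA libraries with genotype as the factor, so the 3 Y332F libraries add to the shared estimate of the spread. Benjamini-Hochberg adjustment covered all features tested. An SE is the size of the fold change divided by the square root of F. The fits were tested on simulated data.

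The genes and the 34 gene lists were chosen with earlier results of these data known. The naming rule took Top3beta, the 10 largest rises and falls whose groups were separate and whose higher mean reached 5 CPM, the 10 deepest falls and the 10 most abundant genes of the class low in Top3b26, and from each list 2 abundant and 2 strongly changed members. Not all of these are printed, and genes outside the rule are said to be chosen after their values were seen. Alternatives were DESeq2 1.42.0, other normalizations and filters, a fit without the other genotypes, a replicate block, a 2-fold minimum, a wider limit and each replicate left out. The core of genes that meet the class rule without each delRGG replicate was added after the data were seen. Plots were drawn with matplotlib 3.10.9.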

Additional observations from a re-analysis of the deposited data

How the results depend on the processing

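Top3beta kept its direction and call in every fit, with log2 fold changes of delRGG over Top3b26 between 2.55 and 2.67 when a replicate was left out. The counts moved more. For delRGG against Top3b26, 2834 genes became 1312 with the compared groups fitted alone and 1573 with a 2-fold minimum, and ranged from 816 to 4719 with a replicate left out. For delRGG against wild type, 580 became 1127 with DESeq2, 67 with the groups alone and 205 at 2-fold, and ranged from 337 to 920. For Top3b26 against wild type, 5695 became 3676 with a mean of at least 50 counts and 3012 at 2-fold, and ranged from 4477 to 6773. The class low in Top3b26 and near wild type in delRGG, 412 genes, became 227 at 2-fold and 812 with a limit of 1, and ranged from 176 to 964. The opposite class, 757 genes, became 410 with no filter, 486 with a mean of at least 50 counts and 33 at 2-fold, and ranged from 268 to 1681. Fewer genes were tested at the higher mean, and a left-out replicate leaves fewer libraries; the cause of the other shifts was not tested. None of the 126 named genes called between the alleles reversed direction in any alternative run.

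Total-count normalization moved the share of higher calls for Top3b26 against wild type to 31.5%, against 42.0%, and its median over all genes to -0.12. For delRGG against Top3b26 the share was 60.9%, 76.5% with no filter, 51.2% with the groups alone, and 46.5% and 47.4% without Top3b26 replicates 2 and 3. For delRGG against wild type it was 55.5%, 40.3% with the groups alone and 36.3% without delRGG replicate 1. Of 126 named genes called between the alleles, 75 kept the call in every alternative run and 51 lost it in at least 1.

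Replicate numbers are shared in the titles, but they did not pair the samples. The correlations of deviations of same-numbered delRGG and Top3b26 replicates were 0.618, -0.246 and 0.233. The replicate block gave 2836 calls between the alleles, 654 for delRGG and 6031 for Top3b26 against wild type, and classes of 446 and 893 genes.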

Other observations

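Small nucleolar RNAs, which guide the chemical modification of ribosomal RNA, were examined after their values were seen. Of 144 tested, 26 were higher (18.1%, against 17.2% of all genes) and 0 lower in delRGG than in Top3b26, with a median log2 fold change of 0.82, against 0.02 over all genes. Top3b26 had 58 lower and 3 higher than wild type (median -0.84), and delRGG had 2 higher and 3 lower than wild type (median -0.09). In all, 17 of the 144 (11.8%) met the rule for staying near wild type in delRGG, against 4.12% of all genes. The snoRNA host transcripts Uhg1 and Uhg3 also met it. Uhg3 had 13.2, 11.5 and 18.3 CPM in delRGG, 5.63, 6.12 and 5.47 CPM in Top3b26 and 17.3, 17.5 and 17.8 CPM in wild type (log2 fold change 1.32, SE 0.20, edgeR adjusted p 0.00148). Uhg1 had 8.11, 8.38 and 14.6 CPM in delRGG, 4.31, 3.32 and 3.97 CPM in Top3b26 and 10.7, 7.94 and 9.66 CPM in wild type (1.42, edgeR adjusted p 0.0103; without Top3b26 replicate 2, 1.31 and 0.0545).

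Other genes of the core of 163, picked after their values were seen, belong to none of the lists except Hr4. The RasGAP gene vap had 151, 150 and 185 CPM in delRGG, 8.20, 10.8 and 8.99 CPM in Top3b26 and 127, 134 and 137 CPM in wild type (4.12, SE 0.13, edgeR adjusted p 8.42e-09). The RNA helicase gene Dbp80 had 90.5, 91.4 and 133 CPM in delRGG, 13.6, 16.3 and 15.8 CPM in Top3b26 and 116, 104 and 124 CPM in wild type (2.78, SE 0.16, edgeR adjusted p 1.34e-06). Cchl, the enzyme that attaches heme to cytochrome c, had 131, 140 and 134 CPM in delRGG, 41.7, 43.0 and 40.1 CPM in Top3b26 and 134, 139 and 127 CPM in wild type (1.70, SE 0.11, edgeR adjusted p 4.09e-06). The BMP receptor gene wit, which acts in growth of the neuromuscular junction, had 17.1, 12.0 and 13.9 CPM in delRGG, 5.69, 4.50 and 4.25 CPM in Top3b26 and 21.8, 15 and 15.8 CPM in wild type (1.57, SE 0.21, edgeR adjusted p 0.000818). None of the delRGG libraries of these 4 genes overlapped Top3b26. The ecdysone-response receptor gene Hr4 had 119, 97.4 and 33.2 CPM in delRGG, 33.8, 23.5 and 23.5 CPM in Top3b26 and 91.3, 70.4 and 92.6 CPM in wild type, and its delRGG replicate 3 lay within the Top3b26 range (1.63, SE 0.37, edgeR adjusted p 0.0130; without Top3b26 replicate 2, 1.52 and 0.0608; without Top3b26 replicate 3, 1.54 and 0.0630).

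In the opposite class, the lysosomal enzyme gene Naglu had 64.5, 58.4 and 69.1 CPM in delRGG, 208, 230 and 224 CPM in Top3b26 and 60, 65.9 and 66.6 CPM in wild type (-1.79, SE 0.08, edgeR adjusted p 8.74e-08). The fatty acid synthase gene FASN1 had 33.4, 25.9 and 23.0 CPM in delRGG, 65.3, 62.4 and 71.5 CPM in Top3b26 and 18.9, 23.0 and 38.6 CPM in wild type (-1.27, SE 0.23, edgeR adjusted p 0.00463). Bmcp, a carrier of the inner mitochondrial membrane, had 54.9, 56.2 and 60.2 CPM in delRGG, 115, 130 and 128 CPM in Top3b26 and 58.5, 54.2 and 50.6 CPM in wild type (-1.12, SE 0.08, edgeR adjusted p 6.92e-06). All 3 were picked after their values were seen, and none of their delRGG libraries overlapped Top3b26.

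Libraries of the catalytic allele Y332F shared some of these levels with Top3b26 and others with delRGG. The transcript lncRNA:CR40469 had 384, 352 and 514 CPM in Y332F, in the range of Top3b26, and wisp had 596, 698 and 504 CPM in Y332F, also near Top3b26. CG11034 had 16.0, 17.5 and 19.1 CPM in Y332F and Dab had 279, 309 and 290 CPM, both far above Top3b26. Drep1 had 6.96, 8.84 and 5.55 CPM in Y332F, below delRGG at 23.9 to 28.2 CPM. The noncoding RNA lncRNA:CR9284 had 1.41, 2.41 and 2.44 CPM in delRGG and 3.18, 1.87 and 3.80 CPM in Y332F, against 0 counts in every Top3b26 and wild-type library.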
